A study of Homo sapiens with 6 samples.

Results

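The genes described here are 10 cytosolic and endosomal nucleic acid sensors and their adaptors, selected by symbol from the 25343 gene lines of the count table, in A375 cells exposed to panobinostat. A375 is an established human cell line from a malignant melanoma, and panobinostat inhibits histone deacetylases, enzymes that remove acetyl groups from histones and other proteins. Parental A375 cells received 50 nM panobinostat for 24 h in 3 libraries, or the same volume of PBS for 24 h (vehicle, 0 nM) in 3 libraries, and bulk RNA was sequenced. Totals were 32293283 to 36201208 counts in the panobinostat libraries and 34738362 to 38944399 in the vehicle libraries. All libraries come from 1 cell line, and the labels do not state that the replicates were separate cultures. The p-values therefore reflect the variation among these 6 libraries, which could be technical in origin.

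Cells detect foreign or misplaced nucleic acids through receptors that differ in ligand and in place. cGAS (MB21D1) binds double-stranded DNA and makes the messenger cGAMP, which activates STING (TMEM173) on the endoplasmic reticulum, while IFI16 and AIM2 bind DNA through HIN domains, and AIM2 assembles an inflammasome. RIG-I (DDX58) and MDA5 (IFIH1) bind viral or self double-stranded RNA and signal through MAVS on mitochondria. LGP2 (DHX58) lacks the signalling domain of its relatives and modulates them. TLR3 reads double-stranded RNA in endosomes, and ZBP1 reads Z-form nucleic acids and can start necroptosis. STING and MAVS both lead to the kinase TBK1 and the transcription factor IRF3, and so to type I interferon. Many of these genes are themselves induced by interferon.

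Most of the tested members were lower with panobinostat, while the adaptor MAVS rose. MAVS was 4.5-fold higher with panobinostat, while AIM2, TMEM173, DHX58, TLR3 and IFI16 were lower, by 11.2-fold for AIM2, 6.23-fold for TMEM173, 4.44-fold for DHX58, 4.07-fold for TLR3 and 3.06-fold for IFI16. IFIH1 was 1.27-fold higher, DDX58 did not pass the test, and MB21D1 and ZBP1 had at most 2 counts in any library. Of the 10 members 8 had enough counts to be tested, with at least 35 counts in every library, so none of the 8 entered the test through the counts of 1 group alone. Genes were called at an adjusted p under 0.05 in edgeR's quasi-likelihood F test, adjusted by Benjamini-Hochberg over 15499 genes. By that rule 2 members were higher and 5 lower, in a background where 82.8% of all genes tested were called, 41.8% higher and 41.0% lower. Libraries of 1 group lay wholly above or below those of the other for 7 of the 8, against 83.4% of all genes tested. At 2-fold or more, 1 member rose and 5 fell, against 18.9% and 11.7% of all genes tested. At 4-fold or more, 1 rose and 4 fell, against 9.78% and 2.88%. The median log2 fold change of the 8 members was -1.82, and that of all genes tested was 0.01.

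**Figure D1:**
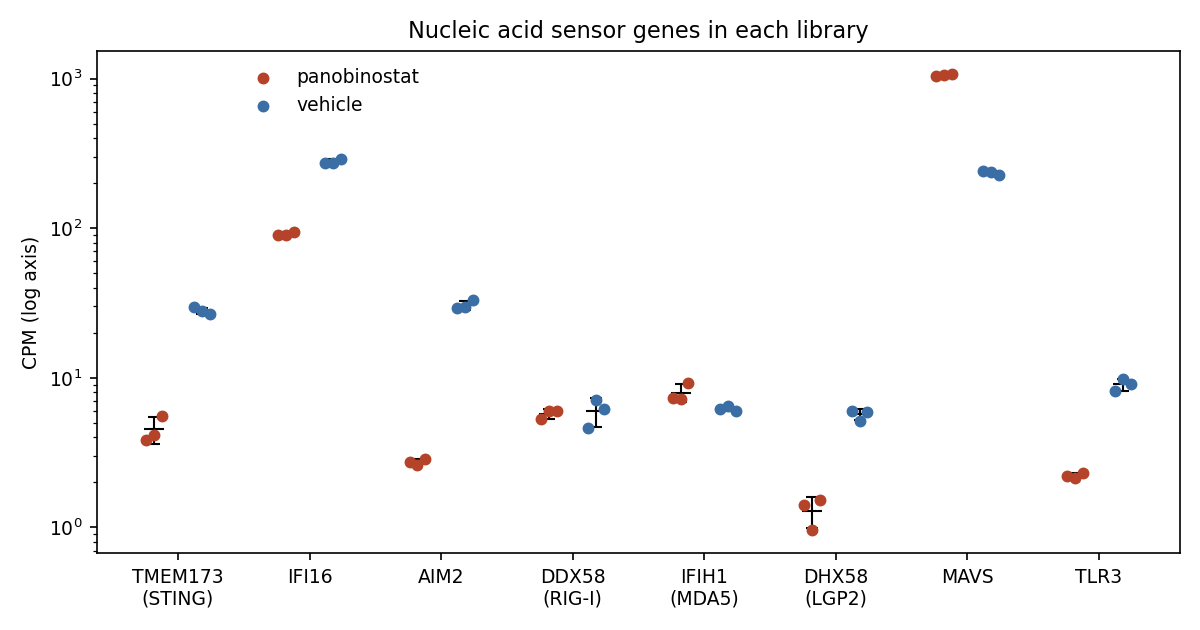
Level of the 8 tested sensor genes in each library, in CPM (counts scaled by TMM-adjusted library size) on a log axis, with panobinostat libraries on the left and vehicle libraries on the right of each gene. Points are libraries and bars are the mean ± SD over 3 libraries. The groups are apart for every gene but DDX58.

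For the start regions of these genes, RefSeq windows of 300 bases (250 before and 50 after the transcription start) on GRCh38.p14 were matched for 6 of the 10 members, with 7 windows. The 4 stretches of 220 bases printed here, from 200 before to 20 after the start, run 5′ to 3′ on the gene's strand. They contrast the strongest riser, MAVS, with AIM2 and TLR3, which fell, and with IFIH1, whose change was small. Capitals mark the letters of an interferon-stimulated response element, searched as GAAA, any 2 bases and GAAA on both strands.
MAVS (chr20:3846634-3846853, plus strand): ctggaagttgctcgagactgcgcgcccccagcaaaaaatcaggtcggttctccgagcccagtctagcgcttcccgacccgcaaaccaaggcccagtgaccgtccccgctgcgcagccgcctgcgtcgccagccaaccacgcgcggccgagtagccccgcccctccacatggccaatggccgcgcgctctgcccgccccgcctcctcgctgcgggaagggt
AIM2 (chr1:159076747-159076966, minus strand): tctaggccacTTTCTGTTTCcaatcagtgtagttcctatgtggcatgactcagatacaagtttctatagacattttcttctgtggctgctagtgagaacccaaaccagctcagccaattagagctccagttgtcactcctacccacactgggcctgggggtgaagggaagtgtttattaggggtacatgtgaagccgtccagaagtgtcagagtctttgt
TLR3 (chr4:186068956-186069175, plus strand): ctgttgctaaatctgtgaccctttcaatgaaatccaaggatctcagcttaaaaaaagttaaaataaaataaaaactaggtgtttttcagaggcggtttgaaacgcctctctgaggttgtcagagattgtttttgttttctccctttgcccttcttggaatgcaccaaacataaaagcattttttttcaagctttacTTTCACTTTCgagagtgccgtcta
IFIH1 (chr2:162318665-162318884, minus strand): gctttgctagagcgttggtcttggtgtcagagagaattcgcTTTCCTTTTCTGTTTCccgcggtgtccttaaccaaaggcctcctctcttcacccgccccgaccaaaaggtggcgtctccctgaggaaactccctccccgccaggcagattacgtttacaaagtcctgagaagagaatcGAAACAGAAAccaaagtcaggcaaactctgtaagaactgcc
The motif was found in 3 of the 6 matched members and in 3.57% of the 35116 windows of the table. AIM2 holds 1 match, on the opposite strand, which begins 190 bases before the start. TLR3 holds 1 match, also on the opposite strand, which begins 4 bases before the start and runs past it. IFIH1 holds 3 matches, at 159, 153 and 21 bases before the start, of which the first 2 overlap. The windows of MAVS, DDX58 and IFI16 had none. The GAS element, searched as TTC, any 3 bases and GAA, was found at 2 places in TLR3 and in no other matched member, against 7.66% of all windows. The NF-kB letters, GGG, any 5 bases and CC, present in 58.7% of all windows, stood at 1 place in DDX58, 1 in MAVS and 2 in IFIH1. CpG dinucleotides numbered 34 in the 300-base window of MAVS, 27 in that of DDX58 and 12 in that of IFIH1. They numbered 5 in that of TLR3, 2 in that of AIM2, and 1 and 3 in those of IFI16, against a median of 14 over all windows. Among the 6 genes with a window, the 3 that fell had fewer CpG than the 3 that did not fall. IFIH1, which did not fall, was also under the median, at 12. TMEM173 and DHX58, which fell too, had no window, and a link between CpG and the changes was not tested. These matches describe letters only, and no binding or acetylation was measured here.

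The DNA-sensing genes fell or were near 0. TMEM173, which encodes STING, the adaptor that cGAMP activates, stood at 3.87, 4.16 and 5.57 CPM in the panobinostat libraries, against 29.6, 27.9 and 26.8 CPM in the vehicle libraries. The highest panobinostat library was far below the lowest vehicle library. The log2 fold change was -2.64 ± 0.10 (SE; edgeR adjusted p = 2.62e-13, n = 3 each), and 178 of the 15499 genes tested had a larger called fall. In bulk RNA a lower level per cell and fewer cells with the transcript cannot be told apart, here and for the other members.

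AIM2, the inflammasome sensor of double-stranded DNA, had the largest fall of the members. It stood at 2.74, 2.63 and 2.85 CPM with panobinostat, against 29.3, 29.7 and 33.1 CPM in vehicle. The libraries of each group lay close together and the groups did not overlap. The log2 fold change was -3.49 ± 0.09 (edgeR adjusted p = 4.17e-16), and 58 genes had a larger called fall.

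IFI16, a relative of AIM2 that senses DNA in the nucleus and cytosol, was the most abundant DNA sensor per kilobase of exon in both groups. It stood at 89.4, 89.4 and 94.6 CPM with panobinostat, against 273, 274 and 290.2 CPM in vehicle. The groups did not overlap, and the log2 fold change was -1.62 ± 0.04 (edgeR adjusted p = 6.41e-16). Of the other genes of this family, PYHIN1 and MNDA, the counts were 2, 1 and 1 for PYHIN1 with panobinostat against 0 in each vehicle library, and 0 for MNDA in every library.

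MB21D1, which encodes the DNA sensor cGAS, had 0 counts in each panobinostat library and 1, 0 and 2 counts in the vehicle libraries. A count of 0 allows up to 3 counts, or 0.082 to 0.0928 CPM in the panobinostat libraries, an allowance for counting error only. Both groups were at or under this floor, and no fold is given. In the GENCODE v29 annotation MB21D1 shares 180 exon bases with DDX43 on the opposite strand, and DDX43 also had a mean of 0 CPM in both groups. None of the other members shared exon bases with another gene in that annotation, which may differ from the one used for counting.

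The RNA-sensing receptors split. DHX58, which encodes the regulator LGP2, stood at 1.41, 0.957 and 1.52 CPM with panobinostat, against 6.04, 5.16 and 5.94 CPM in vehicle. All panobinostat libraries were lower than all vehicle libraries. The log2 fold change was -2.15 ± 0.15 (edgeR adjusted p = 4.03e-10), with 35 to 51 counts per panobinostat library behind it.

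IFIH1, which encodes MDA5, the receptor of long double-stranded RNA, stood at 7.38, 7.25 and 9.22 CPM with panobinostat, against 6.22, 6.43 and 6.01 CPM in vehicle. The third panobinostat library was the highest, and the groups did not overlap. The log2 fold change was 0.35 ± 0.10 (edgeR adjusted p = 0.00401), and 5294 genes had a larger called rise.

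DDX58, which encodes RIG-I, the receptor of RNA with a 5′ triphosphate, stood at 5.28, 6.04 and 6.0 CPM with panobinostat, against 4.62, 7.16 and 6.22 CPM in vehicle. The vehicle libraries spanned the panobinostat range on both sides. The log2 difference was -0.05 ± 0.13 (edgeR adjusted p = 0.737), so that no difference was detectable within the spread of these libraries.

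MAVS, the mitochondrial adaptor of RIG-I and MDA5, was the member that rose most. It stood at 1043, 1064 and 1077 CPM with panobinostat, against 241, 239 and 228 CPM in vehicle. The spread within each group was small beside the gap between them, and the log2 fold change was 2.17 ± 0.04 (edgeR adjusted p = 3.92e-18). A larger called rise was found for 1381 genes. Of the 15499 genes tested, those nearest to MAVS by Euclidean distance over the 6 log2 CPM values were CTSB (0.22), TXNIP (0.25) and SQSTM1 (0.44). CTSB averaged 1038 CPM with panobinostat and 256 CPM in vehicle. For AIM2, the member with the largest fall, the nearest genes by the same measure were SIRPB1 (0.38), KIAA1644 (0.47) and CCDC149 (0.81). SIRPB1 averaged 2.65 CPM with panobinostat and 28.6 CPM in vehicle.

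TLR3, the endosomal receptor of double-stranded RNA, stood at 2.21, 2.13 and 2.32 CPM with panobinostat, against 8.18, 9.82 and 9.12 CPM in vehicle. The groups did not overlap, and the log2 fold change was -2.02 ± 0.11 (edgeR adjusted p = 1.53e-11). ZBP1, the sensor of Z-form nucleic acids, had 1, 1 and 0 counts with panobinostat and 1, 0 and 0 counts in vehicle, at or under the floor in both groups, and no fold is given.

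**Figure D2:**
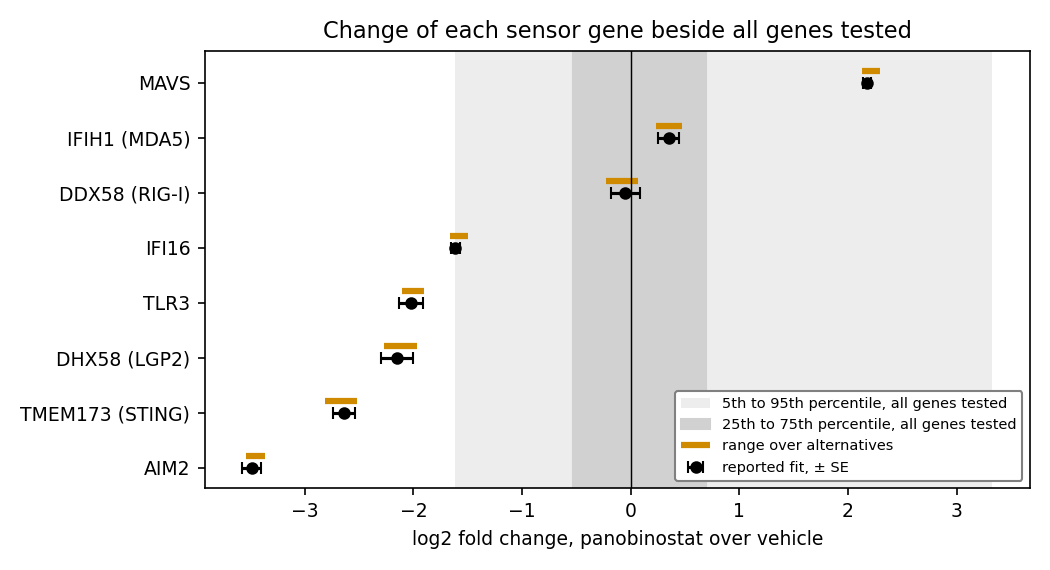
Log2 fold change of each tested sensor gene, panobinostat over vehicle. Black points are the reported edgeR values ± SE, orange bars the range over 14 alternatives, and the grey bands the percentiles of all 15499 genes tested (5th at -1.62, 95th at 3.33). AIM2, TMEM173, DHX58 and TLR3 lie beyond the 5th percentile, and IFI16 at its edge.

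Compared per kilobase of merged GENCODE v29 exons, so that genes of different length can be set side by side, the order of the levels differed between the groups. With panobinostat MAVS led at 90.2 ± 1.46 CPM per kb (SD, n = 3), and IFI16 was next at 17.2 ± 0.564. In vehicle IFI16 led at 52.7 ± 1.82 CPM per kb, followed by MAVS at 20.03 ± 0.603, AIM2 at 15.3 ± 1.04 and TMEM173 at 7.3 ± 0.359. With panobinostat IFIH1, at 1.56 ± 0.216 CPM per kb, came next after IFI16. AIM2 at 1.36 ± 0.0553, DDX58 at 1.33 ± 0.0993 and TMEM173 at 1.18 ± 0.237 CPM per kb followed, and the ranges of AIM2 and DDX58, and of DDX58 and TMEM173, overlapped. DHX58, at 0.337 ± 0.0772 CPM per kb with panobinostat, and TLR3, at 0.33 ± 0.0141, also overlapped. In vehicle the ranges of DHX58, DDX58, TLR3 and IFIH1 overlapped from each to the next in this order, at means of 1.22 to 1.49 CPM per kb. The places of DDX58, IFIH1 and TMEM173 in this order depend on whether merged exons or the longest transcript is used. With the longest transcript, DDX58 ranked 8 in vehicle in place of 6, and IFIH1 ranked 6 in place of 8. With panobinostat, by the same length, TMEM173 ranked 5 in place of 6, and DDX58 ranked 6 in place of 5. MAVS and AIM2 kept their places in vehicle but were nearly level by that length, at 20.12 and 20.07 CPM per kb.

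Ratios of raw counts within a library do not depend on how libraries are scaled, and the pairs below were chosen after the values were seen. MAVS reads numbered 270, 256 and 193 for each TMEM173 read in the panobinostat libraries, against 8.14, 8.57 and 8.49 in the vehicle libraries. The balance between these adaptors of the RNA and DNA routes thus differed 28.2-fold between the groups, with no overlap. Within the RIG-I-like receptors, IFIH1 had 5.24, 7.57 and 6.08 reads per DHX58 read with panobinostat, against 1.03, 1.25 and 1.01 in vehicle. DDX58 had 3.75, 6.31 and 3.96 reads per DHX58 read with panobinostat, against 0.765, 1.39 and 1.05 in vehicle. Within the HIN-domain genes, IFI16 had 32.7, 34.1 and 33.2 reads per AIM2 read with panobinostat, against 9.31, 9.25 and 8.77 in vehicle, so that AIM2 fell further than IFI16 in the same libraries. MAVS had 11.7, 11.9 and 11.4 reads per IFI16 read with panobinostat, against 0.882, 0.871 and 0.784 in vehicle, above 1 in each panobinostat library and below 1 in each vehicle library. The groups did not overlap for any of these 5 ratios.

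**Figure D3:**
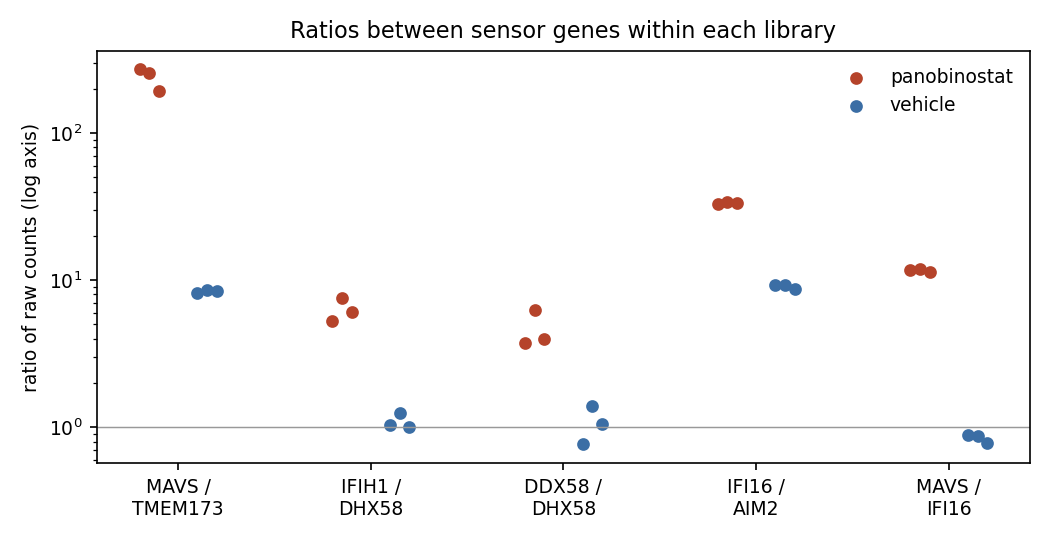
Ratios of raw counts between sensor genes within each of the 6 libraries, on a log axis, with panobinostat libraries on the left and vehicle libraries on the right of each pair. The line marks a ratio of 1, and MAVS over IFI16 is above it in the panobinostat libraries and below it in the vehicle libraries.

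The labelled cell type was set against its markers. Of 9 melanocyte and melanoma genes, 7 were tested, with 1 higher and 6 lower, beside 41.8% higher and 41.0% lower over all genes tested. That background holds also for the leukocyte and epithelial markers below. MLANA and TYR had 0 counts in every library. The 1 higher melanocyte gene was PMEL, a structural protein of melanosomes, at 194 ± 9.46 CPM with panobinostat and 0.628 ± 0.118 CPM in vehicle. Its exons share 89 bases with those of CDK2 on the opposite strand, and CDK2 averaged 98.1 CPM with panobinostat and 112.7 CPM in vehicle. The summed level of the 9 melanocyte and melanoma genes was 1154 to 1264 CPM with panobinostat and 2201 to 2485 CPM in vehicle. SOX10, a defining gene of the lineage, averaged 368 ± 21.8 CPM with panobinostat and 813 ± 56.3 CPM in vehicle. Leukocytes express AIM2, IFI16 and ZBP1 widely, and 10 leukocyte markers summed to 5.44 to 5.91 CPM with panobinostat and 5.03 to 6.27 CPM in vehicle. Of these, PTPRC had 1, 3 and 0 counts with panobinostat and 0 in each vehicle library, and MS4A1 had 0 in every library. LYZ, which made up most of the vehicle sum, was lower, at 3.02 ± 0.255 CPM with panobinostat and 5.17 ± 0.67 CPM in vehicle. CSF1R and CD14 were called higher but passed the filter on low counts only through the panobinostat libraries, with 2, 2 and 2 and with 7, 3 and 8 counts in vehicle. The 5 epithelial markers summed to 28.4 to 30.3 CPM with panobinostat and 7.91 to 9.09 CPM in vehicle, and of the 3 tested, 2 were higher and 1 lower. CLDN4, a tight junction protein, made up most of the panobinostat sum, at 28.0 ± 1.03 CPM with panobinostat and 5.36 ± 0.498 CPM in vehicle. EPCAM was also called higher, with 31, 24 and 18 counts with panobinostat and 3, 2 and 2 in vehicle. It too passed the filter only through the panobinostat libraries. The keratin KRT14 was lower, at 0.779 ± 0.0921 CPM with panobinostat and 3.17 ± 0.321 CPM in vehicle, and CDH1, a defining epithelial gene, had 1, 3 and 3 counts with panobinostat and 0 in each vehicle library. The part of these marker genes in the sensor results was not tested.

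Genes around the sensors were read from 7 lists with 107 genes, of which 89 were tested, 28 were higher, 53 lower and 8 did not pass. Over all genes tested, 82.8% were called, 41.8% as higher and 41.0% as lower. Of the 28, OASL, TLR9, IL18 and RSAD2 reached the filter on low counts in all 3 libraries of the panobinostat group alone, so a rise was the one direction they could show. Of 14 tested regulators and partners of cGAS and STING, 6 were higher and 6 lower, with a median log2 fold change of -0.10. TBK1, the kinase below STING and MAVS, averaged 60.5 ± 2.67 CPM with panobinostat and 65.4 ± 3.89 CPM in vehicle and did not pass (edgeR adjusted p = 0.0579), although it passed as a fall without vehicle replicate 1 and with no filter on low counts. IRF3, the transcription factor that TBK1 phosphorylates, was 1.3-fold higher, at 45.6 ± 0.76 CPM with panobinostat and 35.1 ± 2.67 CPM in vehicle. ENPP1, which degrades cGAMP outside cells, was 2.23-fold higher, and STIM1, a calcium sensor that holds STING at the endoplasmic reticulum, 1.74-fold higher. BANF1, a DNA-binding protein of the nuclear envelope that restricts cGAS, averaged 39.9 ± 2.02 CPM with panobinostat and 81.9 ± 4.08 CPM in vehicle. SLC19A1, a folate carrier that also imports cGAMP, averaged 6.26 ± 0.802 CPM with panobinostat and 13.6 ± 1.44 CPM in vehicle, and the kinase IKBKE 7.88 ± 0.421 CPM with panobinostat and 12.1 ± 0.74 CPM in vehicle. Apart from TBK1, the genes named here passed in edgeR.

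Of 19 tested regulators of RIG-I, MDA5 and MAVS, 5 were higher and 13 lower, beside 41.8% higher and 41.0% lower over all genes tested, with a median log2 fold change of -0.41. Ubiquitin ligases that act on RIG-I went opposite ways. TRIM25 averaged 354 ± 3.5 CPM with panobinostat and 155 ± 3.75 CPM in vehicle (2.28-fold higher, edgeR adjusted p = 5.86e-15), and RNF135 averaged 9.29 ± 0.614 CPM with panobinostat and 26.8 ± 0.918 CPM in vehicle (log2 fold change -1.53 ± 0.07, edgeR adjusted p = 1.3e-12). TRIM65, a ligase of MDA5, averaged 22.1 ± 0.895 CPM with panobinostat and 50.9 ± 2.32 CPM in vehicle. ZCCHC3, a coreceptor of RIG-I and MDA5, fell by 0.88 on the log2 scale. The other rises were those of ZC3HAV1 (1.44-fold), an antiviral zinc finger protein, ITCH (1.37-fold), a ligase that degrades MAVS, TANK (1.47-fold), a scaffold of TBK1, and TOMM70A (1.18-fold), a mitochondrial import receptor that binds MAVS. TRAF6 did not pass, and was called higher under the 5 CPM filter (0.21) or upper quartile scaling (0.23).

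Among adaptors and effectors of TLR3, ZBP1 and AIM2, 2 of 11 tested were higher and 6 lower, with a median log2 fold change of -0.20. Upper quartile scaling gave 3 higher and 4 lower. Over all genes tested in the reported fit, 41.8% were higher and 41.0% lower. TICAM1, the adaptor of TLR3, averaged 16.0 ± 0.489 CPM with panobinostat and 15.9 ± 1.75 CPM in vehicle, and UNC93B1, which carries the receptor to endosomes, 16.1 ± 0.429 CPM with panobinostat and 15.9 ± 1.12 CPM in vehicle, and neither passed. The rises were those of the inflammasome cytokines IL18, at 4.03 ± 0.261 CPM with panobinostat and 0.205 ± 0.0474 CPM in vehicle (7, 6 and 10 counts), and IL1B, at 4.46 ± 0.564 CPM with panobinostat and 0.663 ± 0.178 CPM in vehicle. Of these, IL18 passed the filter on low counts only through the panobinostat libraries. GSDMD, the pore protein that inflammasomes activate, averaged 12.2 ± 1.04 CPM with panobinostat and 36.0 ± 2.55 CPM in vehicle, and MLKL, the effector of necroptosis, 7.79 ± 0.662 CPM with panobinostat and 21.5 ± 0.971 CPM in vehicle. HSP90B1, a chaperone of Toll-like receptors, fell by 0.55 on the log2 scale. The inflammasome adaptor PYCARD and the kinase RIPK3, named after their counts were seen, had 0 counts in every library, and CASP1, named likewise, had 1, 1 and 0 counts with panobinostat and 7, 10 and 9 in vehicle.

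**Figure D4:**
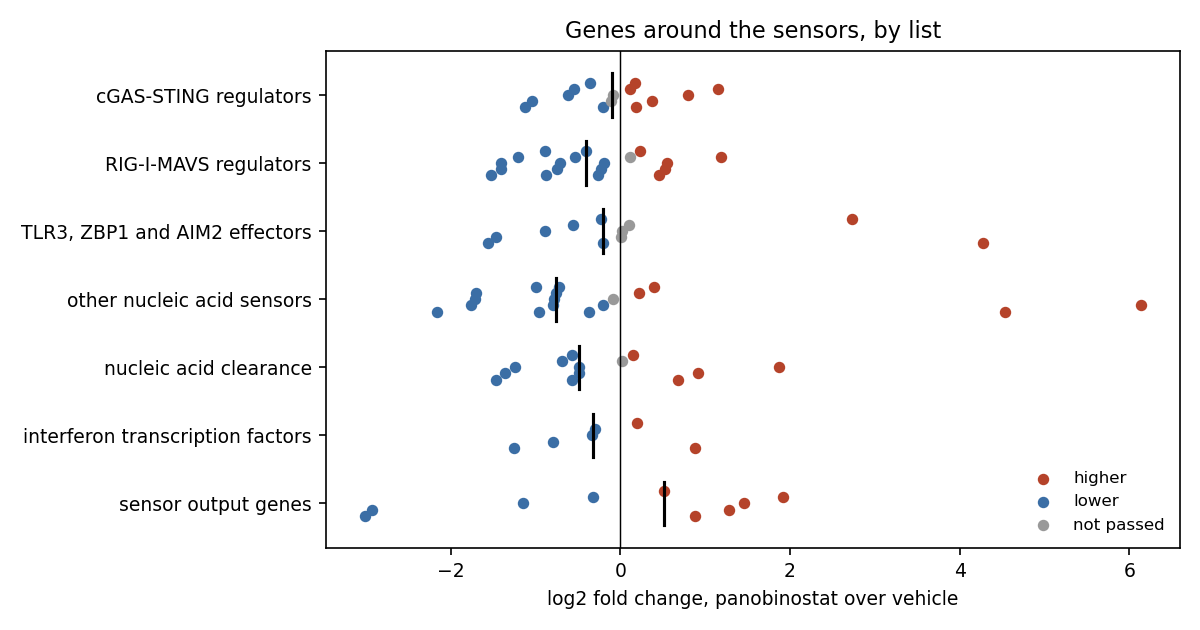
Log2 fold change, panobinostat over vehicle, of the 89 tested genes in 7 lists around the sensors. Each point is a gene, coloured by whether it was higher, lower or did not pass in edgeR's test at an adjusted p under 0.05, and black lines are list medians, from -0.75 for the other nucleic acid sensors to 0.52 for the output genes.

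Of 17 other nucleic acid sensors tested, 4 were higher and 12 lower, beside 41.8% higher and 41.0% lower over all genes tested, with a median log2 fold change of -0.75. The 2′-5′ oligoadenylate synthetase OAS3, which activates RNase L, averaged 22.2 ± 1.77 CPM with panobinostat and 74.9 ± 3.03 CPM in vehicle (edgeR adjusted p = 2.55e-14). EIF2AK2 (PKR), the RNA-activated kinase that stops translation, averaged 60.2 ± 1.54 CPM with panobinostat and 116.8 ± 4.0 CPM in vehicle, and the helicase DHX9 320.0 ± 7.68 CPM with panobinostat and 539 ± 6.56 CPM in vehicle. Against these falls, OASL, a relative of OAS3 without synthetase activity that aids RIG-I, averaged 5.28 ± 0.471 CPM with panobinostat and 0.07 ± 0.0525 CPM in vehicle, where it had 5, 1 and 2 counts. TLR9, the endosomal receptor of unmethylated DNA, averaged 1.94 ± 0.431 CPM with panobinostat and 0.0828 ± 0.0538 CPM in vehicle, where it had 2, 5 and 2 counts. OASL and TLR9 passed the filter on low counts only through the panobinostat libraries, so a rise was the one direction they could show. ZNFX1, a helicase that binds viral RNA, was 1.32-fold higher, and LRRFIP1, a protein that binds RNA and DNA, 1.17-fold higher.

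Enzymes that clear or modify self nucleic acids included 4 higher and 8 lower of 13 tested, with a median log2 fold change of -0.49. Over all genes tested, 41.8% were higher and 41.0% lower. SAMHD1, which hydrolyses deoxynucleotides, averaged 74.1 ± 1.72 CPM with panobinostat and 20.2 ± 0.935 CPM in vehicle, 3.67-fold higher. SKIV2L, a helicase of cytosolic RNA decay, was 1.89-fold higher, and RNASET2, a lysosomal ribonuclease, 1.6-fold higher. TTC37, a partner of SKIV2L, was 1.11-fold higher, a call lost without vehicle replicate 1 (log2 fold change 0.10). RNASEH2A and RNASEH2B, subunits of the enzyme that removes ribonucleotides from DNA, averaged 23.2 ± 0.759 and 11.1 ± 0.602 CPM with panobinostat, against 64.2 ± 1.04 and 28.4 ± 0.358 CPM in vehicle. ADAR, which edits double-stranded RNA, averaged 361.5 ± 9.12 CPM with panobinostat and 507 ± 14.1 CPM in vehicle.

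Transcription factors of the interferon response were divided, with 2 of 6 higher, 4 lower and a median log2 fold change of -0.32. Over all genes tested, the background also for the output genes below, 41.8% were higher and 41.0% lower. IRF1, an activator of interferon-responsive genes, averaged 16.7 ± 1.14 CPM with panobinostat and 9.09 ± 0.299 CPM in vehicle. IRF9 was 1.15-fold higher (edgeR adjusted p = 0.0281), a call lost in 7 of the 14 alternatives: DESeq2, the replicate block, no filter on low counts, and without vehicle replicate 1 or 2 or panobinostat replicate 1 or 2. STAT2, IRF2, IRF7 and IRF5 were lower, with log2 fold changes of -0.30, -0.34, -0.79 and -1.26. Of 18 genes that sensor signalling commonly induces, 9 were tested, with 5 higher, 4 lower and a median log2 fold change of 0.52, which was -0.50 with no filter and -0.23 with the 5 CPM filter. IFNB1, IFNL1, IFNL2, IFNL3 and TNF, named after their counts were seen, had 0 counts in every library. CXCL10, CXCL11, CCL5 and IL6, named likewise, had at most 10 counts in any library. With no filter they entered the fit, which then held 13 output genes. Among targets of interferon and IRF3, IFIT3 averaged 1.7 ± 0.0651 CPM with panobinostat and 12.9 ± 0.935 CPM in vehicle, and IFIT2 0.744 ± 0.157 CPM with panobinostat and 5.99 ± 0.468 CPM in vehicle. MX1 averaged 3.53 ± 0.419 CPM with panobinostat and 7.81 ± 0.277 CPM in vehicle. IFIT1 was 1.83-fold, ISG15 1.43-fold and RSAD2 2.44-fold higher, and the call of RSAD2 was lost without vehicle replicate 2. RSAD2 reached the filter on low counts in all 3 libraries of the panobinostat group alone. Of the NF-kB targets, TNFAIP3, an inhibitor of the pathway, and the chemokine CXCL8 were 3.78-fold and 2.75-fold higher, and NFKBIA, the inhibitor that holds NF-kB in the cytosol, fell by 0.32 on the log2 scale.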

How the data were processed

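The authors deposited raw read counts, as whole numbers for each gene symbol. The name of the deposited table gives STAR as aligner. Its version, the build, the annotation and the strandedness were not found in the labels or the header, so overlapping genes cannot be separated by strand. The labelled dose set the groups, and columns were matched by title. Of 25435 lines, 92 spike-in lines with 0 counts were left out. Genes kept by filterByExpr were scaled by TMM and tested on group alone with edgeR 4.0.16 (estimateDisp and glmQLFit, robust) in R 4.3.3. The SE of a log2 fold change was taken as its absolute value divided by the square root of the F statistic. Over all genes this SE had a median of 0.0689. CPM use TMM-scaled library sizes, and intervals and floors cover counting error only.

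Replicates differed above sampling noise, with a chi-square per degree of freedom of 1.9 to 9.14 within groups and 312 to 359 between groups. The spike-in lines could not set the scaling. Other settings tried were upper quartile, RLE and library-size scaling, a filter of 5 CPM in 3 libraries or none, DESeq2 1.42.0, limma 3.58.1 (voom), a replicate block, and leaving out each library. Within-library ratios and the transcript length alternative were added after the data were seen. Fits were also run on simulated counts, in which far fewer genes changed than were called here. That run cannot show how scaling behaves with changes this widespread, and no result rests on it. The members and lists were chosen with earlier results of these data known. Of the genes listed, 1 is not reported here and was left out of the counts. Named genes are the members, in each list up to 3 called genes per direction, ranked by adjusted p, all called genes of a direction with 5 or fewer, and the 3 genes nearest to MAVS and to AIM2. Of the genes that did not pass, LRRC8A, FADD, DHX36 and RNASEH2C are not described above. LRRC8A and DHX36 were called lower, and FADD higher, under some of the other settings. Motifs were searched in RefSeq windows, and protein sequences were not used here.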

Additional observations from a re-analysis of the deposited data

How the results depend on the processing

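The calls of all 8 tested members, and their directions where called, were the same in each of the 14 alternatives. Log2 fold changes ranged from 2.13 to 2.29 for MAVS, 0.23 to 0.47 for IFIH1, -3.54 to -3.37 for AIM2, -2.81 to -2.52 for TMEM173, -2.27 to -1.97 for DHX58, -2.11 to -1.90 for TLR3 and -1.66 to -1.50 for IFI16. For DDX58, which was not called in any, they ranged from -0.23 to 0.07. Upper quartile scaling put the median of all genes at 0.13, against 0.01 in the reported fit, and gave 57.3% of calls higher, against 50.5%. With the 5 CPM filter, which tests fewer genes, 1 effector of TLR3, ZBP1 and AIM2, 2 other sensors and 3 output genes were higher, and 2 interferon transcription factors were lower. That filter also turned the list medians of the interferon transcription factors and of the output genes to 0.043 and -0.23. The rise of IRF9 was lost with DESeq2, with the replicate block, with no filter, and without vehicle replicate 1 or 2 or panobinostat replicate 1 or 2, each of which left 1 interferon transcription factor higher, so that leaving out a library gave 1 to 2. Without a filter on low counts the median of the output genes was -0.50, and upper quartile scaling put that of the cGAS and STING regulators at 0.023. The titles share their last digit between groups, but deviations of same-numbered libraries correlated at -0.078, -0.058 and -0.141, so the numbers were not taken as pairs. With a replicate block 2 members were higher and 5 lower, and TMEM173 had a log2 fold change of -2.64. At this depth the limit for MB21D1 and ZBP1 is the floor of 3 counts per library, 0.0774 to 0.0928 CPM.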
